A study of Mus musculus with 6 samples.

Results

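The unfolded protein response and the chaperones of the endoplasmic reticulum (ER) were examined as 32 genes, taken by gene name from a count table of 54532 genes. All 32 were among the 13693 genes that passed the filter on low counts. They were divided by role into 3 stress sensors, 2 transcription factors, 14 chaperones and folding enzymes, 7 genes of ER-associated degradation and 6 genes of the ATF4-CHOP branch. The RNA came from livers of male mice, in 3 libraries labelled wild type (WT, replicates 1, 2 and 3) and 3 labelled Trem2 KO (KO, replicates 4, 5 and 6). Only WT replicate 1 carries a suffix, _N, in its deposited sample title, and the labels do not explain it. The Trem2-deficient (Trem2-/-) mice and their wild-type littermates were 8 weeks old when they were put on a high-fat diet, which both groups ate for 8 weeks. Trem2 encodes a lipid receptor of macrophages. The sources used here name neither the deleted exons nor whether each library came from another mouse. P-values therefore measure the spread between these libraries. The comparison asks how the liver on this diet differs without Trem2.

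The ER folds and glycosylates the proteins that a cell secretes, and in the liver these include most plasma proteins. When unfolded proteins collect there, 3 sensors in the ER membrane respond. IRE1 (gene Ern1) splices the Xbp1 transcript into the form that encodes an active transcription factor, ATF6 is cut in the Golgi to release another, and PERK (gene Eif2ak3) slows translation through eIF2alpha, which favours the making of ATF4 and then of CHOP (gene Ddit3). The XBP1 and ATF6 arms drive chaperones and ER-associated degradation, the route by which misfolded proteins leave the ER for the proteasome. ATF4 drives amino acid supply and, with CHOP, genes linked to recovery of translation or to cell death. Gene counts do not show splicing, protein cleavage or translation, so the activity of the sensors was not measured.

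Promoter sequences are shown first, and 7 of the 12 chaperones with a promoter entry hold the ER stress response element described below. The members were chosen as genes of this response, so these matches are not independent of that choice. They also say nothing of KO against WT. Of the 32 members 28 had a RefSeq promoter (build GRCm38.p6, the patch series of mm10), from 250 bases before to 50 after the gene's start. The 4 without an entry were Atf6, Hyou1, Manf and Derl1. Both strands were searched for the ER stress response element ERSE (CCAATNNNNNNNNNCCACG), for ERSE-II (ATTGGNCCACG), for the core of the unfolded protein response element (TGACGTGG) and for the ATF4 element CARE (TGATGNAAT or TTGCATCA). ERSE was found in 39 of 32851 promoters of that length (0.119%), ERSE-II in 12 (0.0365%), the unfolded protein response element core in 222 (0.676%) and CARE in 548 (1.67%). Among the 28 members ERSE was found in 9. These were 7 of the 12 matched chaperones (Hspa5, Hsp90b1, Pdia6, Dnajc3, Canx, Creld2 and Calr) and 2 of the 6 matched degradation genes (Derl3 and Syvn1). ERSE-II was found in Herpud1 and, just after the start, in Dnajb11, and CARE in Herpud1 and Chac1. No gene held both ERSE and ERSE-II. Among the chaperones the promoters of Dnajb9, Pdia3, Pdia4 and Sdf2l1 held none of these letter strings in the window searched, and neither did those of Xbp1, Creb3l3, Ern1, Eif2ak3, Atf4, Ddit3, Trib3, Asns, Ppp1r15a, Edem1, Sel1l and Derl2. A match is a string of letters and was not tested as a binding site.

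All matched sites are shown, singly or within a longer stretch, 5′ to 3′ on the gene's strand, with the motif in capitals and positions counted from −1 at the base before the RefSeq start. ERSE reads CCAAT first on the gene's strand and CGTGG first where it lies on the other strand. For Hspa5, Hsp90b1, Pdia6 and Chac1 only the site is printed, because the GENCODE gene model used for the counts begins further upstream than the RefSeq start. Hsp90b1 holds 2 sites in opposite orientation.
Hspa5, ERSE, −65 to −47: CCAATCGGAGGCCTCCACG
Hsp90b1, ERSE, −212 to −194: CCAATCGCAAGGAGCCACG
Hsp90b1, ERSE, −107 to −89: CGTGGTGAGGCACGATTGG
Pdia6, ERSE, −98 to −80: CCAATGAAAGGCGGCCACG
Chac1, CARE, −193 to −186: TTGCATCA
Calr, ERSE, −162 to −144: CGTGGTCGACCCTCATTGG
Derl3, ERSE, −156 to −138: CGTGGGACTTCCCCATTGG
Syvn1, ERSE, −44 to −26: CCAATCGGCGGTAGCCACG
Dnajb11, ERSE-II, just after the start: ATTGGCCCACG
Longer stretches that end at the base before the start are shown for 3 chaperones with ERSE and for Herpud1, which holds CARE and, closer to the start, ERSE-II.
Dnajc3 (chr14:118937812-118937931, plus strand): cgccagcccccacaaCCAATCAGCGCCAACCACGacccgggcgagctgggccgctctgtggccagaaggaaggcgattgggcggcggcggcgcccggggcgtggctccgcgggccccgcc
Canx (chr11:50325674-50325833, minus strand): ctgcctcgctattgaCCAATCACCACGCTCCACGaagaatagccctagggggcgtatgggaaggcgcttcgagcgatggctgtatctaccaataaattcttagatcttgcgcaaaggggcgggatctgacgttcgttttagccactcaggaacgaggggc
Creld2 (chr15:88819506-88819645, plus strand): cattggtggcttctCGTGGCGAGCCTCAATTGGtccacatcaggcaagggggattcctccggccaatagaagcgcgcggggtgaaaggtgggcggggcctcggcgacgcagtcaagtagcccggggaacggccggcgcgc
Herpud1 (chr8:94386299-94386428, plus strand): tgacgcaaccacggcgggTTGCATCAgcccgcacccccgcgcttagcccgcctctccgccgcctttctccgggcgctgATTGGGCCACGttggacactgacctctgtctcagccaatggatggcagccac

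The libraries held 11591021 to 20399361 counts, and the labels were not well separated by the whole transcriptome. Over the tested genes, the log2 CPM of KO replicate 5 correlated most with that of WT replicate 3 (Pearson's r = 0.970 across genes, which are not independent replicates), against 0.929 and 0.939 with KO replicates 4 and 6. The lowest correlation was between WT replicate 1 and KO replicate 4 (0.886). Trem2 had 7, 26 and 26 counts in the WT-labelled and 9, 6 and 5 counts in the KO-labelled libraries (log2 −1.30, SE 0.68, edgeR adjusted p = 0.633), so the targeted gene did not separate the labels either. The share of mitochondrially encoded transcripts was 8.16%, 12.7% and 10.2% in WT replicates 1, 2 and 3, and 28%, 9.08% and 19.8% in KO replicates 4, 5 and 6. Levels below are CPM, read counts scaled to a common library total with TMM factors. A change is the fitted log2 ratio of KO to WT from edgeR, given with its standard error (SE). In bulk tissue, fewer cells of a type and less RNA per cell cannot be told apart.

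In edgeR none of the 32 members had an adjusted p under 0.05, where 0.0146% of all tested genes did, in either direction. At an unadjusted p under 0.05, 2 members were lower in KO, Xbp1 and Asns, against 3.21% of all tested genes lower at that level. No member was higher at that level, against 5.37% of all tested genes. The KO and WT values did not overlap in 4 members, Ern1, Xbp1, Syvn1 and Asns, all lower in KO, where this held for 5.73% of all tested genes. No member had all KO values above the WT values, against 8.12% of all tested genes. Fitted changes were below 0 for 28 of the 32, with a median of −0.53, while 6963 of the 13693 tested genes were below 0, with a median of −0.01. The 4 members fitted above 0 were Sel1l, Ddit3, Trib3 and Ppp1r15a. Without WT replicate 1 the median over the members was −0.14, and 22 of 32 were below 0. The median was −0.80 without WT replicate 2 and −0.83 without KO replicate 5.

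**Figure D1:**
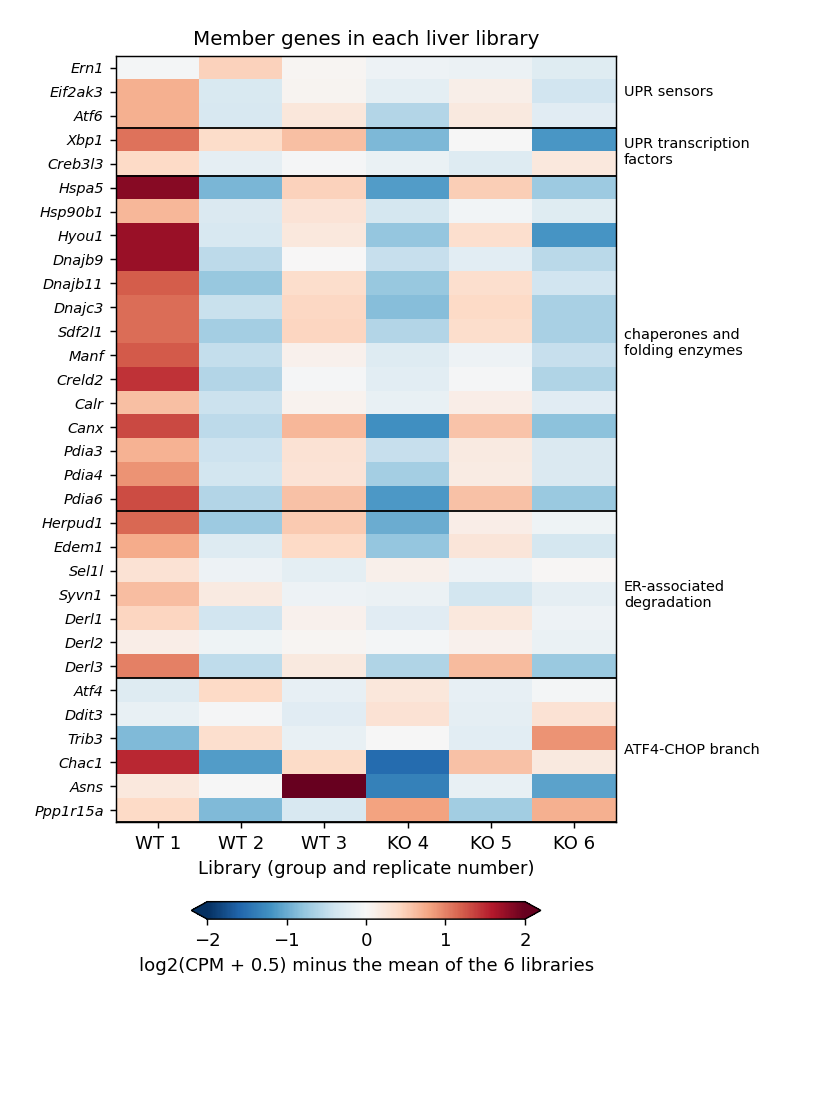
Level of each of the 32 members (rows, grouped by role) in each of the 6 libraries (columns), as log2(CPM + 0.5) minus the gene's mean over the libraries, with red above and blue below that mean; the colours saturate at the ends of the scale. WT replicate 1 was highest in all 14 chaperones, KO replicate 5 stood above KO replicates 4 and 6 in all 14, and the ATF4-CHOP genes other than Chac1 followed other orders.

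None of the 3 sensors passed the test, and all were fitted lower. Ern1, which encodes IRE1, stood at 30.2, 42.9 and 31.7 CPM in WT replicates 1, 2 and 3 and at 28.7, 28.3 and 26.1 CPM in KO replicates 4, 5 and 6. All KO values were below all WT values by a small margin (log2 −0.33, SE 0.21, edgeR adjusted p = 0.662). Eif2ak3, which encodes PERK, stood at 13.5, 6.4 and 8.36 CPM in WT and at 6.99, 8.80 and 6.04 CPM in KO, with the groups overlapping (log2 −0.37, SE 0.32, edgeR adjusted p = 0.724). Atf6 stood at 59.2, 28.7 and 42.1 CPM in WT and at 23.8, 41.5 and 30.7 CPM in KO (log2 −0.44, SE 0.32, edgeR adjusted p = 0.684). For Eif2ak3 and Atf6 the highest library was WT replicate 1, and without it their changes were −0.02 and −0.15. Without WT replicate 2 their changes were −0.58 and −0.67. Ern1 was the exception, with its highest value in WT replicate 2 and a change of −0.43 without WT replicate 1.

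Xbp1 was the member with the smallest p and the clearest separation of the labels. It encodes the transcription factor that IRE1 activates by splicing. The gene (ENSMUSG00000020484, mm10 chromosome 11, 5520659 to 5525893) stood at 272, 166 and 194 CPM in WT replicates 1, 2 and 3 and at 67.9, 128 and 56.9 CPM in KO replicates 4, 5 and 6. The lowest WT library thus lay above the highest KO library. The group means were 211 ± 55.2 CPM in WT and 84.1 ± 38.0 CPM in KO (SD, n = 3 each), a 2.50-fold difference. The log2 change was −1.32 (SE 0.36), with p = 0.00626 and an adjusted p of 0.40 in edgeR, and the exact permutation test (two-sided) gave p = 0.1, the smallest that 3 against 3 can give. DESeq2 called it lower (adjusted p = 0.0368), the only member it called, where it called 0.367% of all genes with an adjusted p as lower. Its change stayed below 0 without any 1 library, between −1.76 without KO replicate 5 and −1.10 without WT replicate 1. The edgeR adjusted p in those 6 fits ranged from 0.187 to 1.00.

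Creb3l3 encodes CREBH, a membrane-bound transcription factor of hepatocytes that is cut in the Golgi as ATF6 is, and that drives genes of lipid handling and the acute phase. Its level overlapped between the groups, at 392, 263 and 291 CPM in WT and 270, 247 and 343 CPM in KO. The log2 change was −0.14 (SE 0.25, edgeR adjusted p = 0.859), and it was 0.05 without WT replicate 1 and −0.29 without KO replicate 6.

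The 14 chaperones and folding enzymes were all fitted lower in KO, but their groups overlapped and the WT libraries differed widely among themselves. Their median log2 change was −0.74, and no member of the class had groups that did not overlap. The lowest unadjusted p of the class was 0.0663. Hspa5 encodes BiP, the main HSP70 chaperone of the ER lumen, which also holds the sensors inactive. It stood at 935, 140 and 363 CPM in WT replicates 1, 2 and 3, a 6.69-fold span, and at 122, 374 and 159 CPM in KO replicates 4, 5 and 6. WT replicate 2 was at the level of KO replicates 4 and 6, and KO replicate 5 at that of WT replicate 3. Its log2 change was −1.13 (SE 0.69, edgeR adjusted p = 0.662), and −0.21 without WT replicate 1 but −1.78 without KO replicate 5.

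Hyou1, which encodes the large HSP70 relative GRP170 and a nucleotide exchange factor of BiP, likewise had WT replicate 1 as its highest library and KO replicate 5 as its highest KO library. It stood at 154, 36.8 and 53.9 CPM in WT and at 27.0, 58.4 and 20.2 CPM in KO (log2 −1.21, SE 0.60, edgeR adjusted p = 0.623). Dnajb9, which encodes the BiP co-chaperone ERdj4, was high in 1 library only, with 85.3, 17.5 and 25.7 CPM in WT against 18.3, 21.8 and 17.3 CPM in KO (log2 −1.16, SE 0.54, edgeR adjusted p = 0.614). Without WT replicate 1 the changes of these genes were −0.37 and −0.18, and without WT replicate 2 they were −1.57 and −1.54. Manf encodes a small secreted protein that is released on ER stress. It stood at 137, 41.6 and 62 CPM in WT and at 48.7, 54.3 and 42.3 CPM in KO (log2 −0.73, SE 0.41, edgeR adjusted p = 0.647). Its change was −0.10 without WT replicate 1 and −1.04 without WT replicate 2. The Manf gene model spans Dcaf1 on the other strand and Rbm15b on the same strand. Reads of Dcaf1 could be exchanged with those of Manf where strand was not kept, and keeping strand would not separate those of Rbm15b.

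The other J-domain partners of BiP also had WT replicate 1 as the highest library, followed by WT replicate 3 and KO replicate 5. Dnajc3, or p58IPK, stood at 272, 92.0 and 166 CPM in WT and 69.5, 166 and 80.1 CPM in KO (log2 −0.75, SE 0.47). Dnajb11, or ERdj3, stood at 131, 32.8 and 72.0 CPM in WT and 32.9, 71.2 and 42.8 CPM in KO (log2 −0.68, SE 0.50). In both, KO replicate 5 was within 1 CPM of WT replicate 3. Sdf2l1, which forms a complex with ERdj3, had a log2 change of −0.69 (SE 0.47), and Creld2, an ER-resident stress-induced protein, of −0.82 (SE 0.50). Creld2 went to 0.02 without WT replicate 1 and to −1.18 without WT replicate 2.

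Hsp90b1 and Calr varied less between libraries. Hsp90b1, which encodes the HSP90 of the ER, GRP94, stood at 641, 331 and 490 CPM in WT and at 317, 391 and 343 CPM in KO (log2 −0.48, SE 0.29). Calr, the lectin chaperone calreticulin, stood at 902, 437 and 622 CPM in WT and at 535, 645 and 505 CPM in KO (log2 −0.22, SE 0.31). Calnexin, its membrane-bound relative, was more variable, and Canx stood at 291, 81.1 and 185 CPM in WT and 49.6, 173 and 66.0 CPM in KO (log2 −0.95, SE 0.58). Among the protein disulfide isomerases, Pdia6 had a log2 change of −0.87 (SE 0.57), Pdia4 of −0.59 (SE 0.36) and Pdia3, the partner of calnexin and calreticulin, of −0.42 (SE 0.33). The edgeR adjusted p of the whole class lay between 0.614 and 0.816.

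Features of the order of the libraries that the chaperones shared were read after the values were seen and are given as a description. WT replicate 1 was the highest of the 6 libraries in 14 of 14 chaperones, where it was so in 27.2% of all tested genes. WT replicate 2 was the lowest WT library in 14 of 14 (39.5% of all tested genes), KO replicate 5 the highest KO library in 14 of 14 (42.2%), and KO replicate 5 was above WT replicate 2 in 14 of 14 (51.9%). All of the first 3 held together in 17.5% of all tested genes. The ratio of WT replicate 1 to WT replicate 2 lay between 1.94 and 6.69 with a median of 3.57, and in each of the 14 genes it exceeded the ratio of the WT to the KO mean, which was at most 2.32. Without WT replicate 1 the class median was −0.20, without WT replicate 2 it was −1.06 and without KO replicate 5 it was −1.08.

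**Figure D2:**
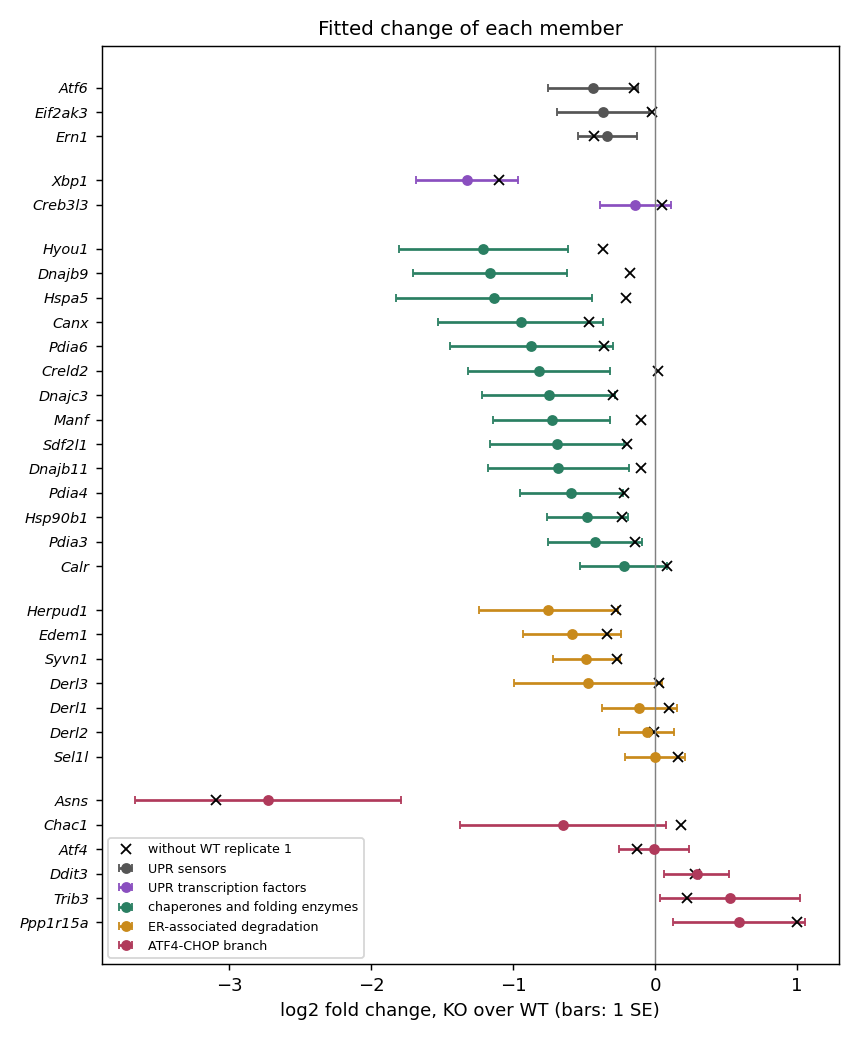
Fitted log2 fold change of KO over WT for each member (points, coloured by role) with 1 SE (bars), and the change without WT replicate 1 (crosses). The 14 chaperones lay between −1.21 and −0.22 and all lay further right without WT replicate 1, where their median was −0.20, while Xbp1 was at −1.10 without that library.

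WT replicate 1 was the highest library in 7 of 7 genes of ER-associated degradation, and in 5 of 7, all but Sel1l and Syvn1, WT replicate 2 was also the lowest WT library and KO replicate 5 the highest KO library. Of the 7 members 6 were fitted lower, with a median of −0.47. Herpud1, which encodes the scaffold HERP of the degradation complex, varied widely, with 716, 194 and 461 CPM in WT replicates 1, 2 and 3 and 161, 351 and 303 CPM in KO replicates 4, 5 and 6. The groups overlapped (log2 −0.75, SE 0.49, edgeR adjusted p = 0.667). The change was −0.27 without WT replicate 1 and −1.12 without WT replicate 2. Edem1, a lectin that hands misfolded glycoproteins to the complex, stood at 133, 66.3 and 105 CPM in WT and 46.6, 94.7 and 62.1 CPM in KO (log2 −0.58, SE 0.35, edgeR adjusted p = 0.657). Derl3, a derlin of the membrane channel, had the lowest counts of the class, from 50 to 246 per library. It stood at 14.9, 4.87 and 8.27 CPM in WT and 4.54, 11.4 and 4.07 CPM in KO (log2 −0.47, SE 0.52).

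The ubiquitin ligase complex and the other derlins had smaller spans. Syvn1, which encodes the ligase HRD1, stood at 108, 79.2 and 65.2 CPM in WT and 64.4, 54.1 and 61.6 CPM in KO. The KO values were all below the WT values, by less than 1 CPM at the nearest point (log2 −0.48, SE 0.24, edgeR adjusted p = 0.622). Sel1l, its partner, stood at 107, 81.4 and 76.2 CPM in WT and at 93.6, 81.4 and 89.4 CPM in KO (log2 0.00, SE 0.21). Derl2 was the steadiest member, with 143, 123 and 135 CPM in WT and 127, 139 and 119 CPM in KO (log2 −0.06, SE 0.19), and Derl1 had a log2 change of −0.11 (SE 0.26). Without WT replicate 1 the class median was −0.01, and without WT replicate 2 it was −0.53.

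The ATF4-CHOP branch did not follow the chaperones. Of its 6 members 3 were fitted lower and 3 higher, with a median of 0.14. Atf4 encodes the factor whose translation PERK favours, so its transcript level says little of its protein. It stood at 62.4, 98.3 and 66.4 CPM in WT and at 87.5, 66.3 and 72.3 CPM in KO (log2 −0.01, SE 0.24, edgeR adjusted p = 0.993), and its highest library was WT replicate 2, the lowest WT library of every chaperone. Ddit3, which encodes CHOP, stood at 7.85, 8.64 and 7.44 CPM in WT and 10.8, 7.73 and 10.8 CPM in KO (log2 0.29, SE 0.23, edgeR adjusted p = 0.699). KO replicates 4 and 6 were above every WT library and KO replicate 5 was among them. A second row named Ddit3, which overlaps the first, had 0 counts in all 6 libraries.

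Ppp1r15a encodes GADD34, which restores translation by reversing the phosphorylation of eIF2alpha. It stood at 26.4, 10.6 and 15.8 CPM in WT and 34.9, 12 and 32.7 CPM in KO (log2 0.59, SE 0.46, edgeR adjusted p = 0.695). KO replicates 4 and 6 were the highest libraries and KO replicate 5, the highest KO library of every chaperone, was below WT replicates 1 and 3. Trib3, a pseudokinase that CHOP and ATF4 induce, stood at 1.5, 4.16 and 2.82 CPM in WT and 3.18, 2.69 and 6.37 CPM in KO (log2 0.53, SE 0.49, edgeR adjusted p = 0.733). Chac1, a glutathione-degrading enzyme, was the member of the branch in which WT replicate 1 was highest, WT replicate 2 the lowest WT library and KO replicate 5 the highest KO library. It stood at 25.5, 3.71 and 11.5 CPM in WT and 2.63, 13.2 and 9.92 CPM in KO (log2 −0.65, SE 0.73, edgeR adjusted p = 0.77).

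Asns, which encodes asparagine synthetase, had the largest fitted change among the members, and it rested on few reads. It had 24, 19 and 174 counts in WT replicates 1, 2 and 3 and 2, 23 and 5 counts in KO replicates 4, 5 and 6. The corresponding levels were 1.5, 1.22 and 8.46 CPM in WT and 0.182, 1.07 and 0.328 CPM in KO. The groups did not overlap, but WT replicate 2 and KO replicate 5 were close. The log2 change was −2.73 (SE 0.93, edgeR adjusted p = 0.50), and DESeq2 gave an adjusted p of 0.083. Without WT replicate 3 it was −1.32, with an unadjusted p of 0.136.

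**Figure D3:**
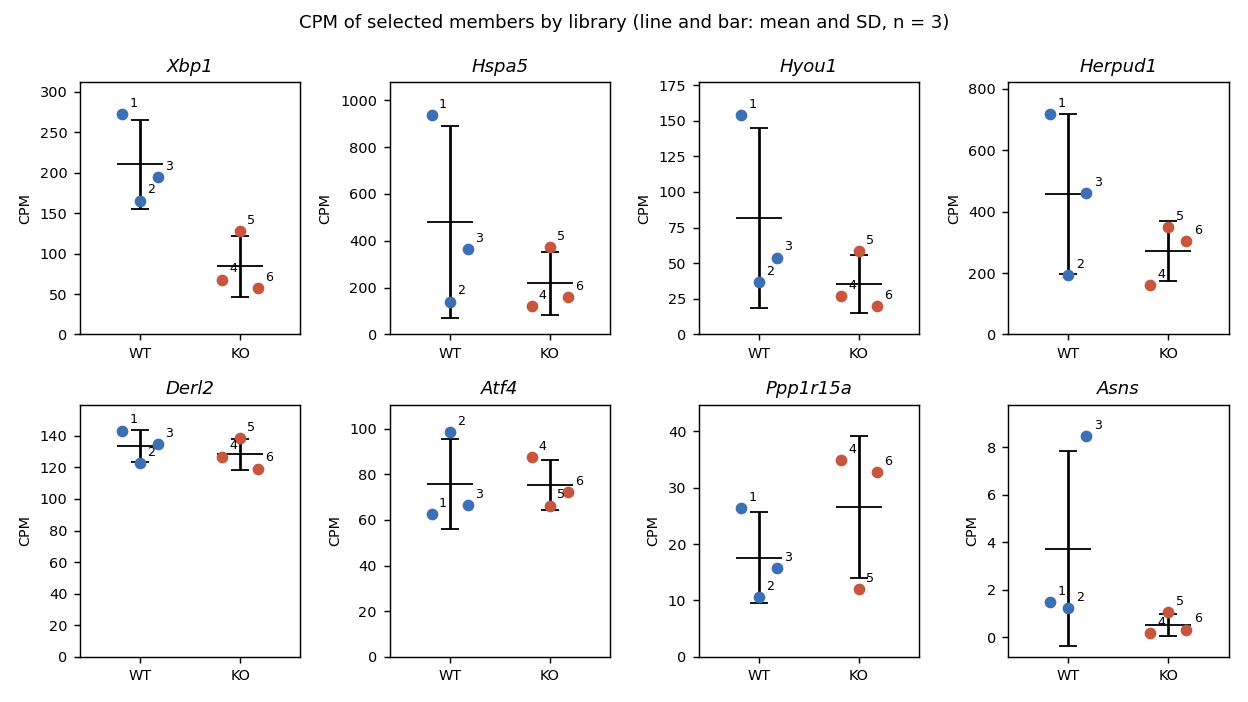
CPM of 8 members in each library (points, numbered by replicate), with the mean and SD of each group (horizontal line and bar, n = 3). In Xbp1 the WT libraries, from 166 to 272 CPM, all lie above the KO libraries, from 56.9 to 128 CPM, while Hspa5, Hyou1 and Herpud1 overlap, with WT replicate 1 far above the other libraries.

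Set side by side, the chaperones and ER-associated degradation ordered the libraries nearly alike, and the ATF4-CHOP branch ordered them otherwise. The level of a class in a library was taken as the mean log2(CPM + 0.5) over its members, relative to the mean of the 6 libraries. For the chaperones it was 1.21, −0.52 and 0.29 in WT replicates 1, 2 and 3 and −0.64, 0.22 and −0.56 in KO replicates 4, 5 and 6. For ER-associated degradation it was 0.62, −0.27 and 0.13 in WT and −0.38, 0.12 and −0.23 in KO. For the ATF4-CHOP branch it was 0.14, −0.22 and 0.32 in WT and −0.26, −0.14 and 0.16 in KO. The difference of the KO from the WT mean was −0.65 for the chaperones, −0.32 for ER-associated degradation and −0.16 for the ATF4-CHOP branch, and the SDs were 0.87, 0.45 and 0.27 over the WT libraries and 0.48, 0.26 and 0.22 over the KO libraries (n = 3 each). The size of the difference was below the WT SD in each class, but above the KO SD for the chaperones and ER-associated degradation. In the ATF4-CHOP branch this difference of means has the opposite sign to the median of the fitted changes (0.14), and Asns was its lowest member. Asns had 174 counts in WT replicate 3, its highest library, and 2 in KO replicate 4, its lowest. The branch level was likewise highest and lowest in these libraries, so its order may rest on this low-count gene. The level was not computed without Asns.

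The share of mitochondrial transcripts was broadly lower where the chaperone level was higher. The 3 libraries with the highest chaperone levels, WT replicates 1 and 3 and KO replicate 5, had the 3 lowest shares (8.16%, 10.2% and 9.08%), and KO replicate 4, with the lowest level, had the highest share (28%). Its part in the result was not tested. With the log2 share as a covariate, a fit added after the data were seen, the chaperone median was −0.02 with 8 of 14 fitted lower, and Xbp1 had a log2 change of −0.85. With 1 surrogate variable in the model the chaperone median was −0.06 with 9 of 14 fitted lower, and Xbp1 had −0.97. Leaving out WT replicate 1 and KO replicate 4 together gave −0.05 with 11 of 14 fitted lower, and −0.96 for Xbp1.

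**Figure D4:**
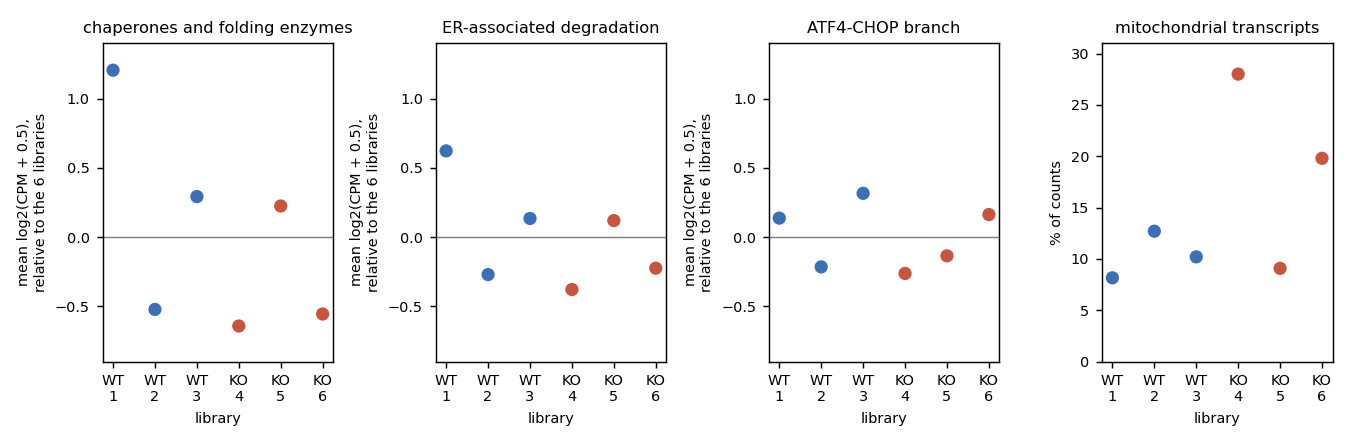
Mean log2(CPM + 0.5) of the chaperones, the ER-associated degradation genes and the ATF4-CHOP branch in each library, relative to the mean of the 6 libraries, and the percentage of counts from mitochondrially encoded genes (blue WT, red KO). The chaperone level was highest in WT replicate 1 (1.21) and lowest in KO replicate 4 (−0.64), whose mitochondrial shares were 8.16% and 28%.

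Per kilobase of gene length, Calr, Herpud1 and Pdia3 were the most abundant members in WT liver and Eif2ak3, Asns and Trib3 the least. Calr led with 227 ± 81.3 CPM per kb in WT and 195 ± 25.8 CPM per kb in KO (SD, n = 3 each). It was followed in WT by Herpud1 at 196 ± 112, Pdia3 at 155 ± 56.5, Hsp90b1 at 121 ± 38.5, Hspa5 at 113 ± 97.0 and Creb3l3 at 105 ± 22.5 CPM per kb. These neighbours differed by less than their SDs. Xbp1 stood at 64.9 ± 17 CPM per kb in WT and 25.9 ± 11.7 CPM per kb in KO. Atf4 stood at 32.1 ± 8.34 CPM per kb in WT, whereas Ddit3 stood at 4.66 ± 0.357, Ern1 at 4.27 ± 0.849, Eif2ak3 at 1.56 ± 0.605, Asns at 1.36 ± 1.5 and Trib3 at 1.33 ± 0.627 CPM per kb in WT.

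The wider pathway was read from 9 lists holding 173 other genes, of which 167 were tested. None passed an adjusted p of 0.05 in edgeR, and 106 were fitted lower, where 50.9% of all tested genes were. At an unadjusted p under 0.05, 1 was lower and 5 were higher, against 3.21% and 5.37% of all tested genes. ER translocation and signal peptide removal had 18 of 22 fitted lower (median −0.27), N-glycosylation and glucosidases 11 of 14 (median −0.30), disulfide bond formation 10 of 13 (median −0.16) and other ER-associated degradation genes 14 of 22 (median −0.23). WT replicate 1 was the highest library in 18 of 22 translocation genes, 12 of 14 glycosylation genes, 12 of 13 disulfide genes and 15 of 22 other degradation genes. It was so in 8 of 10 mitochondrial chaperones and proteases and 9 of 13 cytosolic heat shock genes. The counts were lower in other sensors (10 of 18), other cofactors (10 of 21) and other ATF4 targets (10 of 34), against 27.2% of all tested genes. In the translocation list, the lowest p was that of Spcs2, a signal peptidase subunit (log2 −0.47, SE 0.25), followed by Srp19 of the signal recognition particle (log2 −0.45, SE 0.26). In the glycosylation list these were Mogs, the first glucosidase of the pathway (log2 −0.52, SE 0.26), and Rpn1, an oligosaccharyltransferase subunit (log2 −0.54, SE 0.30). Pdia5, a disulfide isomerase, was the 1 gene lower at that p, with 95.7, 42.6 and 70.4 CPM in WT and 35.7, 45.9 and 44.4 CPM in KO (log2 −0.73, SE 0.30, edgeR adjusted p = 0.569). Tmx1 came next in that list (log2 −0.51, SE 0.29), and among degradation genes Selenos (log2 −1.02, SE 0.47) and Rnf139 (log2 −0.78, SE 0.50) had the lowest p.

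Other ATF4 target genes had 13 of 34 tested fitted lower and 21 higher, with a median of 0.17. Fgf21, a hormone that the stressed or fasting liver secretes, stood at 2.24, 7.11 and 6.95 CPM in WT and at 25.7, 12.6 and 16.9 CPM in KO, with every KO library above every WT library. The fitted log2 change of Fgf21 was 1.75 (SE 0.46, edgeR adjusted p = 0.40), and DESeq2 gave an adjusted p of 0.0322. Fgf21 was the only 1 of the 167 pathway genes that DESeq2 called. Over all 15545 genes with an adjusted p, DESeq2 called 155 in either direction. Sesn2, a stress-induced regulator of mTORC1, stood at 5.73, 9.16 and 7.34 CPM in WT and at 12.3, 9.22 and 26.7 CPM in KO (log2 1.12, SE 0.41, edgeR adjusted p = 0.524). Aldh18a1, an enzyme of proline synthesis named after its value was seen, had a log2 change of 1.17 (SE 0.48, edgeR adjusted p = 0.559) on low counts.

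The remaining lists held both directions. Other sensors and signalling partners had 11 of 18 tested fitted lower (median −0.19), and the lowest p were those of Traf2, an adaptor of IRE1 (log2 0.73, SE 0.33), and Creb3l1, a relative of Creb3l3 (log2 1.13, SE 0.54). Other ER cofactors and retrieval receptors had 12 of 21 fitted lower (median −0.16). There Serpinh1, the collagen chaperone HSP47, stood at 15.8, 25.4 and 23.1 CPM in WT and at 53.9, 51.8 and 34.2 CPM in KO (log2 1.12, SE 0.27, edgeR adjusted p = 0.391), and Cnpy3, a chaperone of Toll-like receptors, at 54.1, 53.0 and 45.3 CPM in WT and 67.9, 73.2 and 75.4 CPM in KO (log2 0.51, SE 0.18, edgeR adjusted p = 0.519). Both had groups that did not overlap. Outside the ER, cytosolic heat shock genes had 10 of 13 fitted lower (median −0.17), led by Hspa1b (log2 −0.91, SE 0.52) and Hsph1 (log2 −0.63, SE 0.46), and mitochondrial chaperones and proteases 7 of 10 (median −0.40), led by Hspe1 (log2 −0.60, SE 0.26) and Hspd1 (log2 −0.85, SE 0.47).

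Markers of the cells a liver sample can hold were measured beside these genes. The hepatocyte list was high in all 6 libraries, with Alb between 47854 and 68041 CPM, but 6 of its 8 markers were fitted lower (median −0.35) and WT replicate 1 was highest in 6 of 8. Its summed level was 114805, 78352 and 104961 CPM in WT replicates 1, 2 and 3 and 80260, 83356 and 85825 CPM in KO replicates 4, 5 and 6. Cps1, the first enzyme of the urea cycle, stood at 2198, 574 and 1408 CPM in WT and at 198, 724 and 363 CPM in KO (log2 −1.70, SE 0.60, edgeR adjusted p = 0.513), with WT replicate 1 highest and KO replicate 5 the highest KO library, as in the chaperones. KO replicate 5 was the highest KO library in only 4 of the 8 hepatocyte markers. In 3 of 8, WT replicate 1 was also the highest library and WT replicate 2 the lowest WT library. Apob was near 0 (log2 −0.07), and Ttr (0.06) and Trf (0.30) were fitted higher. Plasma cells, which carry a large ER, had 8 markers with a summed level of 23.3 to 79.1 CPM in WT and 31.7 to 43.4 CPM in KO, and 3 of the 5 tested were fitted lower. Markers of pancreatic acinar cells were near 0, with 3 of 9 at 0 in all libraries and a summed level of at most 0.561 CPM. Macrophage markers had 8 of 8 fitted higher, where 6730 of the 13693 tested genes were. Their summed levels were 82.8 to 118 CPM in WT and 133 to 213 CPM in KO, and the groups did not overlap in 4 of the 8, all higher in KO. Among all tested genes, 8.12% had every KO library above every WT library, the share also for the lists that follow. Sinusoidal endothelial markers had 6 of 6 fitted higher, from 0.02 in Kdr to 1.04 in Eng. They summed to 139 to 166 CPM in WT and 210 to 309 CPM in KO. Only Eng, at 51.3 to 83.4 CPM in WT and 94.8 to 177 CPM in KO, had groups that did not overlap. Stellate cell and fibroblast markers had 6 of 8 fitted higher, at 149 to 172 CPM in WT and 174 to 429 CPM in KO. Des, Pdgfrb, Col1a1 and Col3a1 had every KO library above every WT library, as Serpinh1 had. These 4 markers had fitted changes of 1.91, 0.66, 2.38 and 2.28, with edgeR adjusted p from 0.370 to 0.569. In the same order DESeq2 gave them adjusted p of 0.0175, 0.572, 0.0029 and 0.00157. Lrat, Dcn, Reln and Acta2 overlapped, with fitted changes of −0.03, −0.01, 0.15 and 2.38. Biliary markers summed to 39.8 to 78.2 CPM in WT and 56.5 to 74.9 CPM in KO, lymphocyte markers to 2.74 to 5.57 and 1.53 to 5.54 CPM, and neutrophil markers to 1.86 to 7.73 and 1.67 to 2.30 CPM, with Ly6g at 0 in all libraries. Of the adipocyte markers, Adipoq, Lep and Plin1 stood at 5.79, 2.96 and 5.65 CPM in KO replicate 5 and at no more than 0.454 CPM in any other library, and Cfd was present in all 6. The part of these cells in the values of the members was not tested.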

How the data were processed

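The members, lists and tests were chosen with earlier results of these data known. The labels' protocols give Trizol extraction of flash-frozen livers and an Illumina TruSeq RNA kit. HISAT2 2.0.5, featureCounts 1.5.0-p3 and DESeq2 1.16.1, with genome mm10, come from the submitters' processing notes. How strand was handled is not stated there, and 7 members overlap a gene of at least 1 CPM on the other strand.

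The authors' deposited table holds whole read counts per gene, and their deposited FPKM values (scaled by length and library size) served only as an alternative. Counts were tested in edgeR 4.0.16 (R 4.3.3) with TMM scaling, filterByExpr and glmQLFTest, and p-values were adjusted by Benjamini-Hochberg over the 13693 genes kept. SE is the log2 change divided by the square root of F. The biological coefficient of variation was 34.7%. The test was checked on simulated data with 50 changed genes of each size. At an adjusted p under 0.05 it recovered 3 of 50 at 2-fold, 28 at 4-fold and 43 at 8-fold. Most 2-fold changes were thus missed there, so the lack of a call says little about changes of that size. All members were named, and from each pathway list any called gene and the 2 with the smallest p. Alternatives used DESeq2 1.42.0, limma 3.58.1 and sva 3.50.0. The exact permutation test used single genes.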

Additional observations from a re-analysis of the deposited data

How the results depend on the processing

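No paired analysis was possible because the WT and KO libraries share no replicate number. Against 2 genes called over all tested genes, DESeq2 called 155, limma-voom 1, limma-voom with sample quality weights 4063, library size alone 1, no filter on low counts 61, and 1 surrogate variable 10. Leaving out 1 library gave 0 to 1. Among the members, 1 was called by DESeq2 and 14 with sample quality weights, against 0. Members lower at an unadjusted p under 0.05 numbered 2, but 4 in DESeq2, 1 in limma-voom, 17 with sample quality weights, 8 without the filter, 1 with limma on log2(FPKM + 1), and 1 to 16 without 1 library, with 16 without WT replicate 2 and 8 without KO replicate 5. The share of all genes lower at that p was 3.21% in the reported fit, 2.54% in DESeq2, 22.1% with sample quality weights, 3.14% without the filter, 5.67% without WT replicate 2 and 10.2% without KO replicate 5. Alternatives added after seeing the data were the removal of WT replicate 1 together with KO replicate 4, and the log2 mitochondrial share as a covariate. These gave 0 and 1 genes called, and 1 and 1 members lower at that p.

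Class medians moved as follows. With 1 surrogate variable they were −0.0055 for the sensors, 0.035 for ER-associated degradation and −0.019 for all members. Without WT replicate 1 and KO replicate 4 they were 0.0093, 0.0041 and −0.0079, and −0.44 for the transcription factors. With the mitochondrial covariate they were −0.026, −0.014 and −0.017, and −0.016 for the chaperones. Without 1 library the median for ER-associated degradation lay between −0.59 and −0.0062.

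Of the 32 members 28 were fitted lower, against 17 with 1 surrogate variable, 18 without WT replicate 1 and KO replicate 4, and 19 with the covariate. With 1 surrogate variable the sign turned in Eif2ak3 (0.012), Hspa5 (0.093), Herpud1 (0.035), Dnajb11, Sdf2l1, Calr, Pdia3, Derl1, Derl2, Derl3 and Chac1. With the covariate it turned in Atf6 (0.035), Hspa5 (0.0018), Ppp1r15a (−0.014), Dnajb11, Sdf2l1, Calr, Pdia3, Pdia6, Sel1l, Derl1, Derl2, Derl3 and Chac1. Without WT replicate 1 and KO replicate 4 the members that turned included Eif2ak3 (0.0093), Atf6 (0.029), Creb3l3 (0.091) and Hspa5 (0.083). Creb3l3 was 0.091 with sample quality weights and −0.29 to 0.047 without 1 library. Atf4 was 0.017 in limma-voom, 0.15 with sample quality weights, 0.037 with upper quartile scaling, 0.0013 with at least 1 CPM in 3 libraries, and −0.13 to 0.22 without 1 library. The cause was not tested. Xbp1 stayed below 0 in all 20 alternatives, between −1.76 and −0.85, with an adjusted p from 0.0047 to 1.00. Low counts per library limit Asns (2 to 174), Trib3 (24 to 97), Chac1 (29 to 409) and Derl3 (50 to 246).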
